A study of Mus musculus with 15 samples.

Results

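The carboxylesterase genes expressed in mouse liver were followed across cultured hepatocytes that differed in donor sex, in the mouse serum they received and in whether growth hormone was added at the end. The set was defined by symbol and held Ces1c, Ces1d, Ces1e, Ces1f, Ces1g, Ces2a, Ces2c, Ces2e, Ces3a and Ces3b. These are 10 of the 20 carboxylesterase rows, and of the 38087 gene rows, in the table of exon counts. All 10 passed the filter on low counts and were tested.

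The cells were cryopreserved primary hepatocytes of CD-1 mice, an outbred stock, from a female or a male source, so that donor sex and donor cannot be told apart. All groups were plated on collagen, overlaid with a basement membrane matrix, kept in medium with insulin and dexamethasone, and given 25% mouse serum for 24 h. Growth hormone (GH, 8 ng per ml) or its vehicle was then added for 2 h. The 5 groups compared are given here with the number of libraries analysed: male cells with serum of conventionally raised (ConvR) male mice (3), female cells with serum of germ-free (GF) female mice plus GH (3), female cells with GF female serum and vehicle (2), female cells with ConvR male serum (3), and female cells with ConvR female serum (2). Germ-free mice carry no microbiota. In the groups of 2, these are replicates 2 and 3; a further 2 columns of the table share 1 header name and were used in no step. The labels do not say whether replicates came from separate cultures or serum pools, so the p-values measure only the spread between these libraries, which may be technical. For the same reason, the sex or microbiota of the serum donors cannot be told apart from the serum pool used.

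Carboxylesterases are serine hydrolases that cut ester, thioester and amide bonds. Most of them sit in the lumen of the endoplasmic reticulum of hepatocytes, where they activate or inactivate drugs and hydrolyse triglycerides, cholesteryl esters and other lipid esters. The mouse genome holds many more copies than the human genome, in tandem blocks, and several mouse enzymes are best known for their part in the release of stored lipid for very-low-density lipoprotein (VLDL) particles.

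Total counts per library ran from 34097400 to 48742274. Levels are CPM, counts scaled to the library's total and given in parts of 1e6, with library sizes scaled by TMM. All 12 hepatocyte markers, such as albumin, were detected in every group. Xist stood at 481.5 CPM in ConvR female serum replicate 2 and at 685.5 CPM in GH replicate 1, against 268.5 to 395.0 CPM in the other female libraries, so the results were also computed without this pair.

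All members lie on chromosome 8 (mm10) in 2 blocks. The Ces1 block, with Ces5a at its end, runs from 93020214 to 93535830, with its genes on the minus strand. The other block, from Ces2a to Ces4a, runs from 104734003 to 105150109 on the plus strand. The longest annotated transcripts were 81.2% identical between Ces3a and Ces3b, 79.8% between Ces2a and Ces2c, and 61.5% to 74.4% within the Ces1 members. Of all 100-base windows in the transcripts of Ces3a, 6.88% also occur in another gene, Ces3b, and of those of Ces3b, 7.04%. For Ces2c the share was 13.6%, with its neighbouring pseudogene Ces2d-ps and with predicted models, for Ces2a 8.13% with a predicted model, and for Ces1c 1.03% with Ces1b. For Ces1d, Ces1e, Ces1f, Ces1g and Ces2e it was 0%. For the pseudogene Ces2d-ps itself it was 56.97%, with Ces2c and predicted models. How the counting treated reads from the shared stretches is not given in the sources used here, so counts of Ces2a, Ces2c, Ces3a and Ces3b, and of Ces2d-ps, are the less certain ones.

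The sequences upstream of the members show how far copies that differed in response resemble each other. RefSeq start sites were available for 7 of the 10 members; Ces1d, Ces1f and Ces3a had no entry. Shown are the 150 bases before the start (GRCm38.p6, 5′ to 3′ in the direction of the gene) for Ces3b and Ces1e, which differed most between male and female cells among these 7, and for the 3 Ces2 members, of which Ces2e and Ces2c differed between the sera. Capitals mark a TATA box in Ces3b, and in the Ces2 genes GAACTTT, a run of 7 bases common to all 3 windows. No longer run is common to them, but another of the same length is, and GAACTTT was chosen, with the sequences in view, as the run at the nearest positions. No capitals mark Ces1e. The positions are chr8:105083605-105083754 (plus strand) for Ces3b, chr8:93229620-93229769 (minus strand) for Ces1e, chr8:104926110-104926259 (plus) for Ces2e, chr8:104733853-104734002 (plus) for Ces2a and chr8:104846918-104847067 (plus) for Ces2c.
Ces3b: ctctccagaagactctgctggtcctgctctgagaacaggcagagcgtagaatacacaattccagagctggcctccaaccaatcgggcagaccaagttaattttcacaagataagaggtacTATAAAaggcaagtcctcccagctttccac
Ces1e: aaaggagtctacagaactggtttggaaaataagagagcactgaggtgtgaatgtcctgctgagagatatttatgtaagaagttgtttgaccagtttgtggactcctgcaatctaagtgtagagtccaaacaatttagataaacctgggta
Ces2e: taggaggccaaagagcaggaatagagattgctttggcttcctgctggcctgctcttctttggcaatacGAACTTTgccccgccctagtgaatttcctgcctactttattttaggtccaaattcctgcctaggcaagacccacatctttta
Ces2a: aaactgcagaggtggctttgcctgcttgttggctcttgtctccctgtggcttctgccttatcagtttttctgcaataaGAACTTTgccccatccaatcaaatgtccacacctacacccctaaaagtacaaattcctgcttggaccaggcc
Ces2c: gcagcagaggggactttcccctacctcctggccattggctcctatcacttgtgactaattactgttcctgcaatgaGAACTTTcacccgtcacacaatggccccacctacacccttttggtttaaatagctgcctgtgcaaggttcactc

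GAACTTT starts 82 bases before the start site in Ces2e, 72 in Ces2a and 74 in Ces2c. On either strand it occurs in 3.8% of all 32851 RefSeq promoter windows of 300 bases (250 before and 50 after the start). Over the 250 upstream bases, Ces2a and Ces2c were 67.0% identical, Ces2a and Ces2e 57.3%, and Ces2c and Ces2e 54.4%. All other pairs of the 7 members, also across the blocks, ran from 46.2% to 56.6%. The value of Ces2c and Ces2e lies within that range, and that of Ces2a and Ces2e just above it. Short motifs were looked for on both strands in the 300-base windows of the 7 members. TTCNNNGAA, bound by STAT factors such as the GH-activated STAT5, occurred in none of them and in 8.3% of all promoters. CAAAGTCCA, bound by HNF4 alpha, also occurred in none, and in 0.5% of all promoters. AGGTCA, the core nuclear receptor motif, occurred in Ces2a (16.3% of all promoters). TTGCNNAA, bound by C/EBP factors, occurred in Ces1c, Ces2a and Ces2e (10.8%), and TATAAA in Ces1g and Ces3b (13.6%). A missing match says only that these letters are not in the window.

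The comparison of male with female hepatocytes in the same ConvR male serum asked how far the donor's sex, or the donor lot, sets the level of these enzymes. All 10 members were higher in male cells, and for each of them the 3 male libraries stood above the 3 female ones, as they did for 23.2% of all genes tested. Such a share of genes without overlap was not counted for the serum and GH comparisons. Of all 17405 genes tested, 36.7% passed the threshold in this comparison, 17.6% as higher in male cells. The median log2 fold change of the members was 1.15, against -0.02 over all genes. It was higher for the 12 hepatocyte markers (1.48) and the 7 endothelial markers (1.72) described below. Every other gene list described below had a lower median than the members. Among the members, the 2 Ces3 genes and Ces1e and Ces1f differed most, and Ces2e least.

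Ces3a, a liver esterase of the endoplasmic reticulum (chromosome 8, 105048601 to 105058413), reached 300.6, 296.0 and 295.9 CPM in male cells, against 54.61, 56.67 and 52.29 CPM in female cells. The male libraries differed from each other far less than from the female ones, and the groups did not come near each other. The log2 fold change was 2.45 ± 0.09 (SE), a 5.46-fold difference (adjusted p = 7.06e-12), and placed Ces3a at rank 161 from the top among all genes. Ces3b, its close copy (105083753 to 105093929), had 58.45, 56.73 and 60.06 CPM in male cells, against 12.72, 14.13 and 12.3 CPM in female cells. Its log2 fold change was 2.16 ± 0.09 (adjusted p = 2.74e-11). Summed over both genes, the level was 356 ± 3.16 CPM in male and 67.6 ± 3.11 CPM in female cells (SD, n = 3 each).

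Ces1e, also known as egasyn, which holds beta-glucuronidase in the endoplasmic reticulum (93201218 to 93229619), had 8.512, 9.642 and 9.598 CPM in male cells, against 1.527, 2.503 and 2.328 CPM in female cells. The difference was 4.36-fold (log2 2.13 ± 0.18, adjusted p = 1.11e-07). Gusb, the beta-glucuronidase itself, did not pass the test (log2 -0.10, adjusted p = 0.231). Ces1f, a lipid hydrolase related to Ces1d (93256236 to 93279747), had 8.512, 8.708 and 8.791 CPM in male cells, against 2.223, 3.226 and 2.201 CPM in female cells. Its log2 fold change was 1.77 ± 0.18 (adjusted p = 1.02e-06). Replicate 2 of the female cells was the highest of its group for Ces1e, Ces1f and Ces1d.

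Ces1d, triacylglycerol hydrolase, which mobilises stored triglyceride for VLDL (93166068 to 93197838), had 9.28, 7.499 and 8.704 CPM in male cells, against 3.321, 5.756 and 4.63 CPM in female cells. The libraries did not overlap, but the female group spread widely, and the log2 fold change was 0.89 ± 0.17 (adjusted p = 0.000532). Ces1g, whose loss in mice raises blood lipids (93302369 to 93337308), had 11.86, 12.69 and 12.13 CPM in male cells, against 5.732, 6.396 and 6.856 CPM in female cells (log2 0.95 ± 0.12, adjusted p = 9.68e-06). Ces1c, the esterase that the liver secretes into mouse plasma (93099015 to 93131283), had 194.3, 205.5 and 201.5 CPM in male cells, against 135.1, 155.2 and 144.9 CPM in female cells. It was the most abundant Ces1 member and the one with the smallest difference among them, 1.38-fold (log2 0.47 ± 0.08, adjusted p = 0.00019).

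The Ces2 members followed in graded steps. Ces2a, a hydrolase of tri- and diacylglycerol (104734003 to 104741634), had 30.39, 31.4 and 30.78 CPM in male cells, against 10.58, 13.26 and 12.6 CPM in female cells (log2 1.35 ± 0.10, adjusted p = 3.12e-08). Ces2c, which also acts on acylcarnitines (104847068 to 104854483), had 23.94, 22.99 and 21.15 CPM in male cells, against 14.78, 14.46 and 13.31 CPM in female cells (log2 0.68 ± 0.08, adjusted p = 6.54e-06). Ces2e, expressed in liver and intestine (104926260 to 104934672), had 68.31, 64.69 and 65.11 CPM in male cells, against 53.43, 60.2 and 56.11 CPM in female cells. Its difference was 1.17-fold (log2 0.22 ± 0.07, adjusted p = 0.0163). Ces2e lost its call with library size as the only scaling (log2 0.14, adjusted p = 0.162), without replicate 1 of the female cells (0.18, adjusted p = 0.0666) and without replicate 1 of the male cells (0.21, adjusted p = 0.0557). With that scaling the median of all genes moved from -0.02 to -0.11, and the share of calls that were higher in male cells was 33.6%, against 48.0% with TMM.

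**Figure D1:**
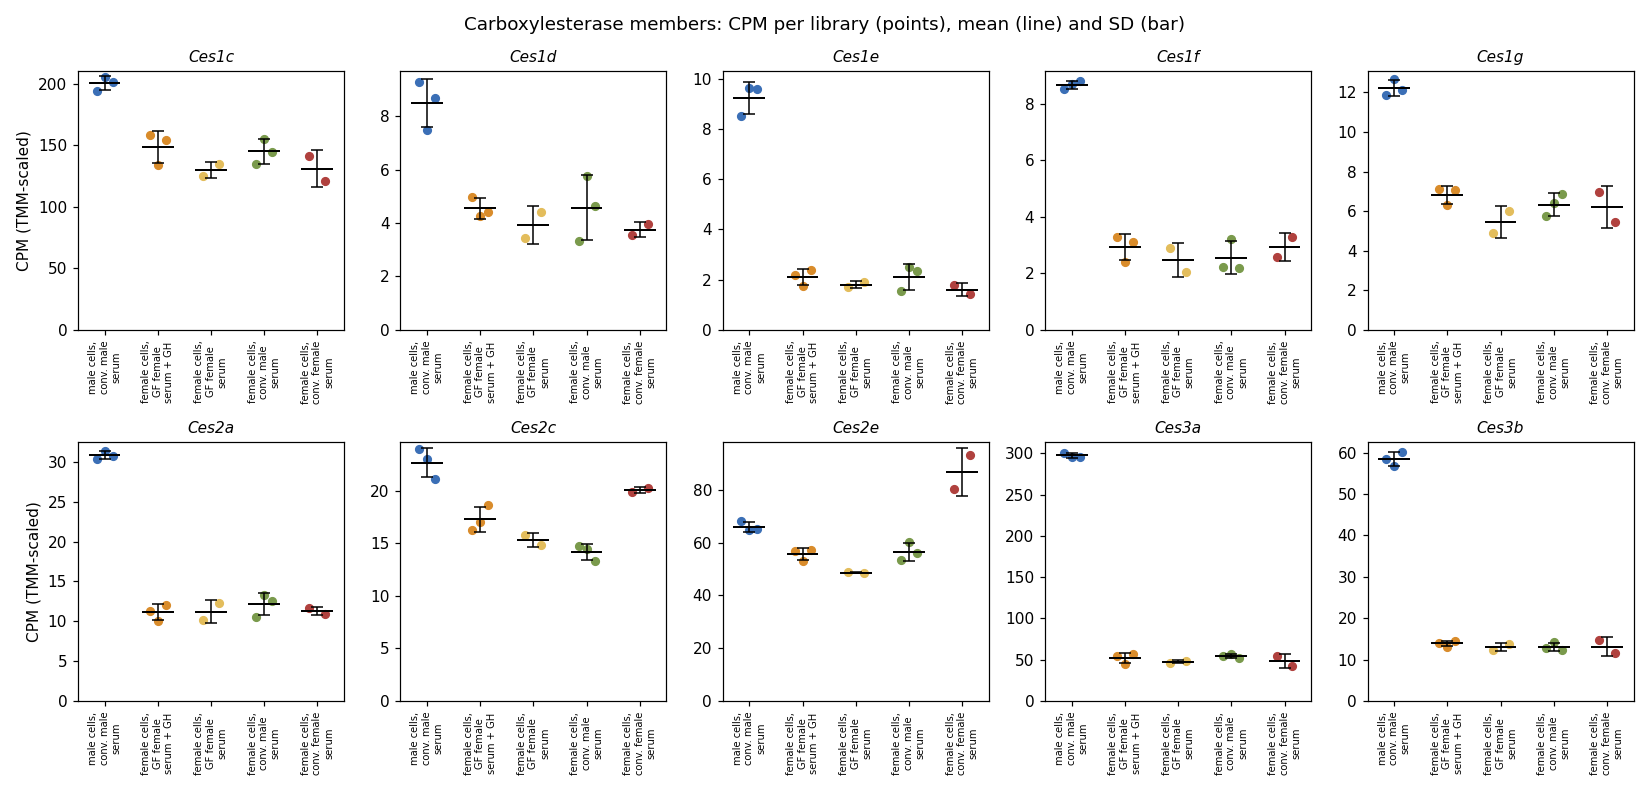
Each panel shows 1 member, with CPM on a linear axis from 0 and 1 point per library; lines are group means and bars are SD. Male cells stand highest for every member but Ces2e, which is highest in female cells with ConvR female serum (80.26 and 93.13 CPM).

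Other carboxylesterases did not all go the same way. The table holds 10 that are not members, of which 4 were tested. Ces1b (log2 0.34, adjusted p = 0.00878) and Ces2h (0.93, adjusted p = 0.00337) were higher in male cells. Ces2g was lower, at 9.004, 8.406 and 6.773 CPM in male cells against 14.06, 14.52 and 12.12 CPM in female cells (log2 -0.75 ± 0.11, adjusted p = 6.53e-05). Ces2d-ps, the pseudogene next to Ces2c, did not pass (-0.40, adjusted p = 0.132). Ces1a, Ces1h, Ces2b, Ces2f, Ces4a and Ces5a had too few counts to test, with at most 9 in any library.

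In chromosomal order the differences rose and fell along each block. In the Ces1 block they grew from Ces1b and Ces1c to Ces1e and were smaller again at Ces1g. In the other block they were 1.35 at Ces2a, 0.68 at Ces2c, -0.40 at Ces2d-ps, 0.22 at Ces2e, -0.75 at Ces2g and 0.93 at Ces2h. The largest stood at the far end, at Ces3a and Ces3b. Of 35 tested genes of other families within 500000 bases of that block, 7 were higher and 11 lower in male cells. Beside the Ces1 block only 4 such genes were tested, with 1 higher and 1 lower.

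**Figure D2:**
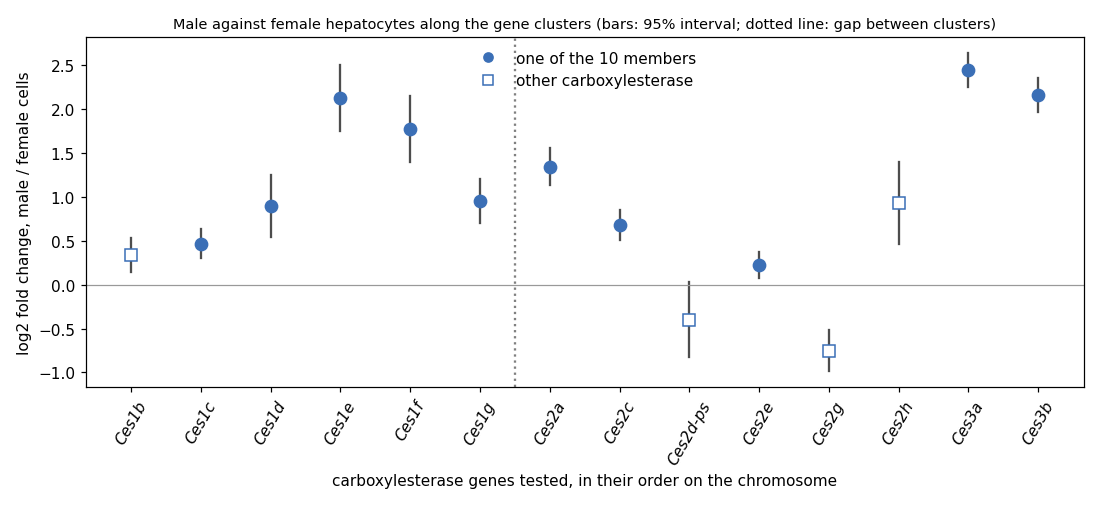
The horizontal axis gives the 14 tested carboxylesterase genes in chromosomal order and the vertical axis the log2 fold change of male over female cells in ConvR male serum, with 95% intervals. Values run from -0.75 at Ces2g to 2.45 at Ces3a.

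Markers of several cell types moved with donor sex as well. Of the 12 hepatocyte markers, 10 were higher in male cells and 1, Hnf4a, was lower, and their summed level ran from 34900 to 36520 CPM in male and from 16190 to 17790 CPM in female cells. Of 7 endothelial markers, 6 were higher, with sums of 49.04 to 52.11 CPM in male and 15.24 to 17.41 CPM in female cells. Sums of 9 Kupffer cell and macrophage markers were 150.2 to 170.3 CPM in male and 81.67 to 101.0 CPM in female cells, with 1 of 7 tested called. The called gene was Cd68, which made up most of the sum (on average 154.1 CPM in male and 79.01 CPM in female cells). The median log2 fold change of that list was -0.06. Stellate cell and fibroblast markers summed to 34.15 to 38.71 CPM in male and 17.32 to 24.74 CPM in female cells, with 4 of 8 higher and 1 lower. The sums for cholangiocyte markers were 27.77 to 34.01 CPM in male and 33.98 to 41.11 CPM in female cells, with 1 of 5 higher and 1 lower. Enterocyte markers were low, at 10.85 to 11.73 CPM in male and 3.723 to 5.589 CPM in female cells, with 1 of 2 tested higher. None of the listed marker genes was at 0 over either group. The part of these differences in the result was not tested, and in bulk RNA fewer cells of a type and less RNA per cell cannot be told apart.

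Among enzymes with related tasks the picture was mixed. Of 22 other esterases and neutral lipases, 7 were higher and 4 lower in male cells. Aadac, the endoplasmic reticulum esterase arylacetamide deacetylase, was higher by 1.74 on the log2 scale, Lipc, hepatic lipase, by 1.10 and Pon1, a plasma esterase that hydrolyses lactones, by 0.86, while Mgll, monoacylglycerol lipase, was lower (-0.77). Of 18 genes of VLDL assembly and triglyceride synthesis, 6 were higher, led by Apoc3 (1.90) and Cideb (1.41), and 2 lower, among them Mttp (-0.40), which loads lipid onto apolipoprotein B. The list of 9 endoplasmic reticulum partners and retention receptors had 8 higher members, led by Kdelr3 (1.23), a receptor that returns proteins to the endoplasmic reticulum. Of 20 genes for drug-metabolising enzymes and transporters under the receptors CAR and PXR, 13 were higher and 5 lower. Among these were Cyp3a25 at 3.10, Cyp2b10 at 2.41, Cyp3a11 at 1.87, Cyp2b9 at -3.77 and Cyp2c37 at -3.25. The median of that list was 0.98. Of 19 nuclear receptors and liver transcription factors tested, 1 was higher, Nr1i2 (the receptor PXR, 0.53), and 4 lower, among them Bcl6 (-0.76), Foxa2 (-0.63) and Hnf4a (-0.33). Nr1i3 (CAR, 0.34), Ppara (0.04) and Nr1h4 (the bile acid receptor, 0.19) did not pass.

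Per length of exon, male and female cells also differed in which enzyme was most abundant. In male cells Ces3a led at 113 ± 1.01 CPM per kb, or 39.7% of the sum over the members, followed by Ces1c at 86.3 ± 2.44 CPM per kb. In female cells with the same serum Ces1c led at 62.5 ± 4.32 CPM per kb (49.2%), and Ces2e and Ces3a followed at 21.0 ± 1.26 and 20.8 ± 0.834 CPM per kb, which do not differ beyond their spread. The lowest were Ces1f in male cells, at 2.64 CPM per kb, and Ces1e and Ces1f in female cells, at 0.968 and 0.776 CPM per kb. Ces1c also led in the other 3 female groups, with 42.9% to 49.8% of the sum. Summed over the 10 members, levels ran from 713.8 to 715.8 CPM in male cells and from 294.1 to 331.8 CPM in female cells with ConvR male serum. The sum of the Ces3 genes alone ran from 352.7 to 359.0 CPM in male cells and from 64.59 to 70.8 CPM in female cells.

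**Figure D3:**
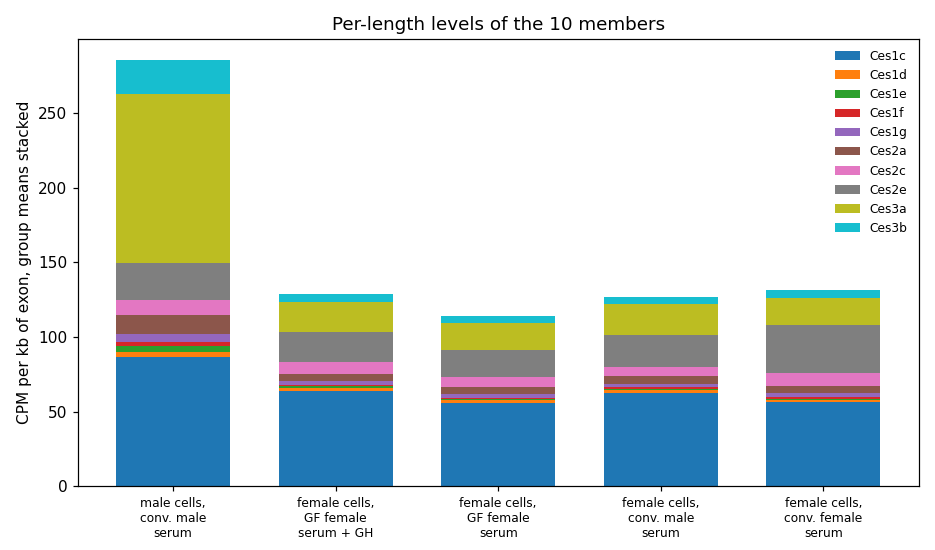
Stacked bars give the group means of the 10 members in CPM per kb of exon, from 0 and without error bars (SD are in the text). The segment of Ces3a is 113 CPM per kb in male cells and 20.8 CPM per kb in female cells with the same serum, while Ces1c is the largest segment in each female group.

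The comparison of GF with ConvR female serum asked what serum of mice without microbiota does to female hepatocytes. Ces2e and Ces2c were lower in GF serum, and the other 8 members did not pass the test. The share of 2 in 10 stands beside 6.41% of all genes called, 3.54% as lower and 2.86% as higher, and the median over the members was -0.02, against -0.003 over all genes. Ces2e had 48.95 and 48.44 CPM in GF serum, against 80.26 and 93.13 CPM in ConvR female serum. The GF libraries nearly coincided, and both ConvR libraries stood well above them. The level in GF serum was 0.562-fold that in ConvR serum (log2 -0.83 ± 0.08, adjusted p = 7.94e-05), and it was -0.94 without the pair of libraries rich in Xist. Ces2e ranked 461 from the bottom among all genes.

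Ces2c had 15.84 and 14.88 CPM in GF serum, against 19.85 and 20.27 CPM in ConvR female serum. The libraries did not overlap, but the share of all genes without overlap was not counted here, and with so few libraries it may be large. The log2 fold change was -0.38 ± 0.10 (adjusted p = 0.0278). This call was lost when each of the 4 libraries was left out in turn (log2 -0.43 to -0.34, adjusted p of 0.0806 to 0.191), when the model held these groups alone (0.0815), and when the Xist-rich pair was left out (0.112). Counted together with Ces2d-ps, with which it shares sequence, Ces2c stood at 17.25 and 16.41 CPM in GF serum and at 22.18 and 22.15 CPM in ConvR serum.

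The remaining members lay between log2 -0.24 (Ces1f) and 0.17 (Ces1e). For the abundant Ces1c and Ces3a the 95% intervals were -0.21 to 0.19 and -0.26 to 0.20, while for Ces1e, at 1.706 and 1.895 CPM in GF serum and 1.776 and 1.407 CPM in ConvR serum, the interval ran from -0.33 to 0.68. Ces2a, whose upstream sequence is the nearest to that of Ces2c, had 10.16 and 12.26 CPM in GF serum and 11.61 and 10.9 CPM in ConvR serum (log2 -0.01, interval -0.27 to 0.26). Among the other carboxylesterases, Ces2g (-0.43, adjusted p = 0.0633) and Ces2d-ps (-0.51, adjusted p = 0.188) did not pass. Both had no overlap between groups, which with so few libraries carries little weight. Of the 4 tested, 0 were called by edgeR, with 2 at an unadjusted p under 0.05, and 1 by DESeq2.

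Regulators of drug-metabolising enzymes were among the genes that differed with GF serum. Of 19 nuclear receptors and liver transcription factors, 9 were lower and 1, Bcl6 (0.56), was higher. Ppara, the fatty acid receptor, averaged 18.7 CPM in GF and 31.5 CPM in ConvR female serum (log2 -0.75 ± 0.14). Nr1i2 was at -0.70, Nr1h4 at -0.68 and Hnf4a, a master regulator of liver genes, at -0.43, while Nr1i3 (-0.62, adjusted p = 0.154) did not pass. Of the 20 genes under CAR and PXR, 5 were lower, Cyp2b10 (-1.48), Ugt2b34 (-0.68), the transporter gene Abcc3 (-0.45), Gstm1 (-0.42) and Cyp3a11 (-0.40). Of the 22 other esterases and lipases, 3 were lower, Mgll (-0.78), Nceh1 (-0.58), a cholesteryl ester hydrolase, and Ephx1 (-0.55), an epoxide hydrolase. Cidec (-1.53), a lipid droplet protein, and Gpam (-0.68), which starts glycerolipid synthesis, were the 2 lower ones of 18 VLDL and triglyceride genes. Aadac (-0.20, adjusted p = 0.650) and Gusb (0.22, adjusted p = 0.109) did not pass. Of the 9 endoplasmic reticulum partners 0 were called by edgeR, with 4 at an unadjusted p under 0.05, and 1 by DESeq2. Hepatocyte markers summed to 16560 to 17240 CPM in GF and 18570 to 20700 CPM in ConvR female serum, with 7 of 12 lower and 1 higher. Enterocyte markers summed to 4.662 to 4.849 CPM in GF and 5.700 to 5.738 CPM in ConvR female serum, with 1 of 2 tested lower, Fabp2 (-1.06). Kupffer cell and macrophage markers summed to 127.2 to 135.6 CPM in GF and 106.7 to 115.4 CPM in ConvR female serum, with 0 of 7 called by edgeR, 1 at an unadjusted p under 0.05, and 0 by DESeq2. Most of that sum was Cd68, on average 123.8 CPM in GF and 102.9 CPM in ConvR female serum. Stellate cell and fibroblast markers summed to 33.19 to 35.95 CPM in GF and 24.70 to 31.04 CPM in ConvR female serum, with 0 of 8 called by edgeR, 2 at an unadjusted p under 0.05, and 0 by DESeq2. Endothelial markers summed to 16.63 to 17.95 CPM in GF and 15.07 to 15.76 CPM in ConvR female serum, with 0 of 7 called by edgeR, 0 at an unadjusted p under 0.05, and 0 by DESeq2. These sums did not overlap between the sera, which with so few libraries carries little weight. Those of cholangiocyte markers did overlap, at 37.71 to 39.22 CPM in GF and 28.87 to 38.43 CPM in ConvR female serum (0 of 5 called by edgeR, 0 at an unadjusted p under 0.05, and 0 by DESeq2). The part of these markers in the result was not tested.

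The comparison of ConvR male with ConvR female serum asked whether the sex of the serum donor acts on female hepatocytes. Ces2e and Ces2c were again the called members, both lower in male serum. Of all genes 8.8% were called, 4.85% as lower and 3.95% as higher, and the median over the members was 0.07, against 0.002 over all genes. This comparison shares its ConvR female libraries with the one before, so the 2 results are not independent. Ces2e had 53.43, 60.2 and 56.11 CPM in male serum, against 80.26 and 93.13 CPM in female serum (log2 -0.62 ± 0.07, adjusted p = 0.000101). Ces2c had 14.78, 14.46 and 13.31 CPM in male serum, against 19.85 and 20.27 CPM in female serum (log2 -0.50 ± 0.09, adjusted p = 0.00242). No library of either group overlapped the other, but the share of all genes without overlap was not counted for this comparison. Both calls remained without any 1 of the 5 libraries, at log2 -0.72 to -0.51 for Ces2e and -0.53 to -0.46 for Ces2c, and without the libraries rich in Xist.

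The other 8 members ranged from -0.20 (Ces1f) to 0.41 (Ces1e, adjusted p = 0.257). Ces3a had 54.61, 56.67 and 52.29 CPM in male serum, against 54.28 and 42.8 CPM in female serum (log2 0.17, interval -0.04 to 0.38). The groups overlapped, with 1 female serum library inside the range of the male serum ones and 1 below it. Ces2d-ps, next to Ces2c, was lower (-0.68, adjusted p = 0.0443). It shares much sequence with Ces2c, and whether its value is separate from that of Ces2c was not tested. Ces2g (-0.31, adjusted p = 0.118) and Ces1b (0.33, adjusted p = 0.0596) did not pass. Of the 19 receptors and transcription factors, 6 were lower and 1 higher, with Nr1i2 (-0.72), Foxa2 (-0.64) and Ppara (-0.58) the lowest and Bcl6 (0.43) the higher one. Of the 20 genes under CAR and PXR 4 were lower, led by Cyp2b10 (-1.59) and Ugt2b34 (-0.91). Cyp3a11 (-0.18, adjusted p = 0.154) did not pass, nor did Hnf4a (-0.24, adjusted p = 0.0878) and Nr1i3 (-0.53, adjusted p = 0.156). Of the 22 other esterases and lipases, Ephx1 (-0.46), Nceh1 (-0.41) and Bche (-0.30), butyrylcholinesterase, were lower and Pnpla2 (0.44), adipose triglyceride lipase, was higher. Of the 18 VLDL and triglyceride genes, 3 were lower, led by Gpam (-0.65), and 2 higher, and of the 9 endoplasmic reticulum partners 1, Kdelr3 (-0.37), was lower. Hepatocyte markers summed to 16190 to 17790 CPM in male and 18570 to 20700 CPM in female serum, with 5 of 12 lower and 1 higher. Kupffer cell and macrophage markers summed to 81.67 to 101.0 CPM in male and 106.7 to 115.4 CPM in female serum, with 1 of 7 lower. The lower gene was Cd68, which made up most of the sum (on average 79.01 CPM in male and 102.9 CPM in female serum). Enterocyte markers summed to 3.723 to 5.589 CPM in male and 5.700 to 5.738 CPM in female serum, with 0 of 2 called by edgeR, 0 at an unadjusted p under 0.05, and 0 by DESeq2. The sums of the other lists overlapped between the sera. Cholangiocyte markers, with 1 of 5 higher and 1 lower, summed to 33.98 to 41.11 CPM in male and 28.87 to 38.43 CPM in female serum. Stellate cell and fibroblast markers (0 of 8 called by edgeR, 2 at an unadjusted p under 0.05, and 0 by DESeq2) summed to 17.32 to 24.74 CPM in male and 24.70 to 31.04 CPM in female serum. Endothelial markers (0 of 7 called by edgeR, 0 at an unadjusted p under 0.05, and 0 by DESeq2) summed to 15.24 to 17.41 CPM in male and 15.07 to 15.76 CPM in female serum. The part of these markers in the result was not tested.

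GF female and ConvR male serum, both lower in Ces2e than ConvR female serum, were also set against each other directly. These sera differ both in the microbiota and in the sex of their donors, which cannot be told apart. Of the members 0 were called by edgeR, and 0 by DESeq2, against 0.448% of all genes by edgeR (0.184% higher, 0.264% lower). At an unadjusted p under 0.05 the count was 1 by either tool. In edgeR this was Ces2e, at 48.95 and 48.44 CPM in GF and 53.43, 60.2 and 56.11 CPM in ConvR male serum (log2 -0.22 ± 0.08, interval -0.38 to -0.05, adjusted p = 0.278). The libraries did not overlap, which with so few of them carries little weight. Ces2c went the other way without passing (0.12, interval -0.08 to 0.31). The largest negative value was that of Ces1e (-0.24, interval -0.70 to 0.22). The median over the members was -0.18, against -0.006 over all genes. Kupffer cell and macrophage markers summed to 127.2 to 135.6 CPM in GF and 81.67 to 101.0 CPM in ConvR male serum, with 1 of 7 higher. The higher gene was Cd68, which made up most of the sum (on average 123.8 CPM in GF and 79.01 CPM in ConvR male serum). Stellate cell and fibroblast markers summed to 33.19 to 35.95 CPM in GF and 17.32 to 24.74 CPM in ConvR male serum, with 0 of 8 called by edgeR, 4 at an unadjusted p under 0.05, and 1 by DESeq2.

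**Figure D4:**
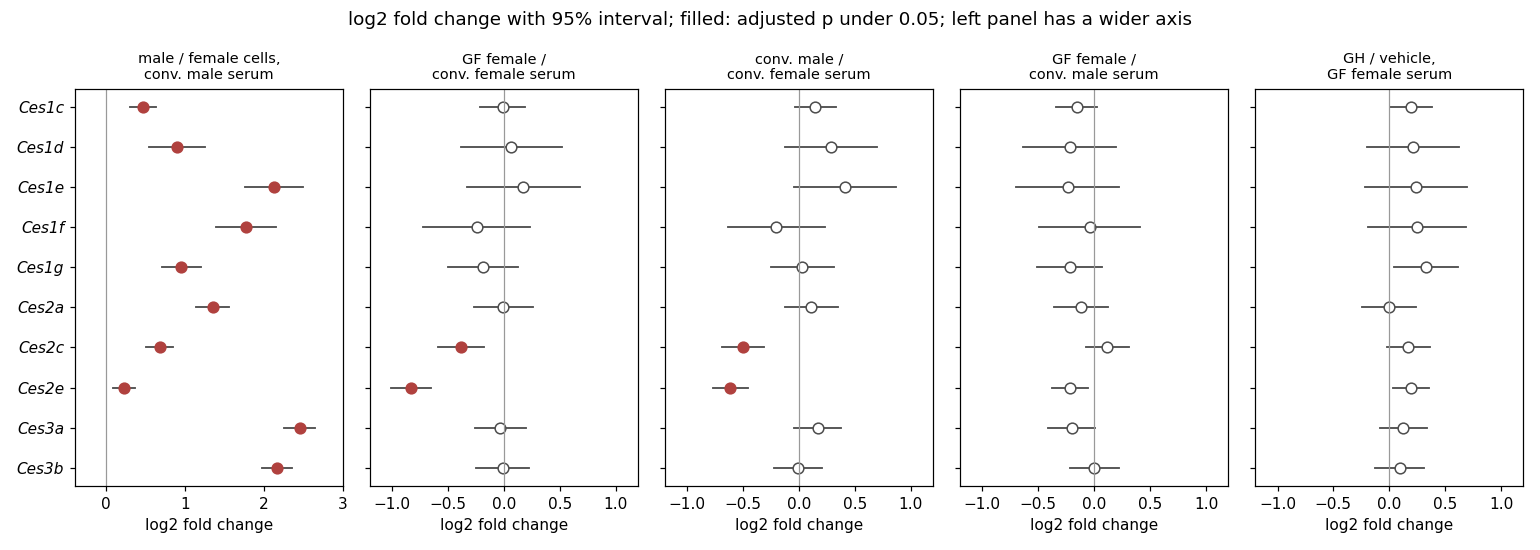
Each panel shows 1 comparison, with the log2 fold change of each member on the horizontal axis, its 95% interval as a line, and a filled point where the adjusted p is under 0.05; the left panel has a wider axis. All 10 points are filled for male over female cells, Ces2c and Ces2e alone for GF over ConvR female serum and for ConvR male over ConvR female serum, and none in the other 2 panels.

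Growth hormone, whose sex-specific secretion pattern sets much of the sex bias of mouse liver, was tested as a 2 h exposure of female hepatocytes in GF female serum. Of the members 0 were called by edgeR, and 0 by DESeq2, against 0.586% of all genes by edgeR (0.511% higher, 0.0747% lower). At an unadjusted p under 0.05 the count was 3 by either tool. In edgeR these were Ces1g, Ces2e and Ces1c, of 2222 such genes in all. Ces1g had 7.13, 6.296 and 7.048 CPM with GH, against 4.878 and 6.02 CPM with vehicle (log2 0.33 ± 0.14, adjusted p = 0.325). Ces2e had 56.87, 52.93 and 57.11 CPM with GH, against 48.95 and 48.44 CPM with vehicle (0.19 ± 0.08, adjusted p = 0.307). Both were without overlap between the groups, and Ces1c (0.19 ± 0.09, adjusted p = 0.373) overlapped. With so few libraries, a lack of overlap carries little weight, and its share over all genes was not counted.

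Every member but Ces2a (-0.004) had a positive log2 value with GH, and the median was 0.19, against -0.001 over all genes. Similar medians stood in hepatocyte markers (0.24), genes under CAR and PXR (0.22), VLDL and triglyceride genes (0.17) and other esterases and lipases (0.14). They were negative for Kupffer cell and macrophage (-0.23), endothelial (-0.27) and stellate cell and fibroblast markers (-0.48). The vehicle libraries were also the GF libraries of the serum comparisons, so these results are not independent. For GF against ConvR male serum the members' median was -0.18, and that of all genes -0.006. Whether the lean with GH comes from GH or from these vehicle libraries was not tested. For GH, the upper ends of the 95% intervals ran from 0.24 for Ces2a to 0.69 for Ces1e, so that changes larger than these lie outside them. The Ces3 genes, which differed most between male and female cells, stood at 0.13 (Ces3a, interval -0.09 to 0.34) and 0.09 (Ces3b, interval -0.12 to 0.31). Of the 19 receptors and transcription factors, Bcl6, a repressor under GH control, was lower with GH (-0.72) and Nfe2l2 was higher (0.29). In the remaining lists, markers of other cell types included, 0 genes were called by edgeR. At an unadjusted p under 0.05 it counted 8 of the 22 other esterases and lipases and 6 of the 18 VLDL and triglyceride genes. Also counted were 7 of the 20 genes under CAR and PXR, 4 of the 9 endoplasmic reticulum partners and 7 of the 12 hepatocyte markers. DESeq2 called 1 other esterase or lipase, 2 VLDL and triglyceride genes, 1 gene under CAR and PXR, 1 endoplasmic reticulum partner and 0 hepatocyte markers. Hepatocyte markers summed to 16880 to 20710 CPM with GH and to 16560 to 17240 CPM with vehicle, which overlap. The sums of several other cell types were lower with GH, without overlap, which with so few libraries carries little weight. They were 89.71 to 108.9 CPM with GH and 127.2 to 135.6 CPM with vehicle for Kupffer cell and macrophage markers, of which 3 of 7 had an unadjusted p under 0.05 in edgeR and 1 was called by DESeq2. Most of that sum was Cd68, on average 95.77 CPM with GH and 123.8 CPM with vehicle. For stellate cell and fibroblast markers the sums were 20.29 to 28.06 CPM with GH and 33.19 to 35.95 CPM with vehicle (2 of 8 unadjusted, 0 by DESeq2), and for endothelial markers 11.81 to 16.42 CPM with GH and 16.63 to 17.95 CPM with vehicle (1 of 7 unadjusted, 0 by DESeq2). Enterocyte markers were higher in sum, at 5.678 to 7.321 CPM with GH and 4.662 to 4.849 CPM with vehicle (1 of 2 unadjusted, 0 by DESeq2). Cholangiocyte markers overlapped, at 37.25 to 48.89 CPM with GH and 37.71 to 39.22 CPM with vehicle (1 of 5 unadjusted, 0 by DESeq2). The part of these markers in the members' values was not tested.

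Across the 5 groups, 9 of the 10 members were highest in male cells. Below these, the female groups overlapped at each step of the order for Ces1c, Ces1d, Ces1e, Ces1f, Ces1g, Ces2a, Ces3a and Ces3b. Ces2c and Ces2e had fewer overlaps, in an order set by their observed means. Neither the share of all genes that were highest in male cells nor the share with so few overlaps was counted. Ces2c averaged 22.7 ± 1.41 CPM in male cells, 17.3 ± 1.2 CPM in GF serum with GH, 15.4 ± 0.675 CPM in GF serum, 14.2 ± 0.776 CPM in ConvR male serum and 20.1 ± 0.302 CPM in ConvR female serum, with no overlap between neighbours in the order. Ces2e averaged 66.0 ± 1.98 CPM in male cells, 55.6 ± 2.35 CPM in GF serum with GH, 48.7 ± 0.363 CPM in GF serum, 56.6 ± 3.41 CPM in ConvR male serum and 86.7 ± 9.10 CPM in ConvR female serum. Only ConvR male serum and GF serum with GH overlapped in that order. These errors are SD over the 2 or 3 libraries of each group. Several steps of these orders did not pass the edgeR test. For Ces2c these were GH against vehicle (adjusted p = 0.44) and GF against ConvR male serum (adjusted p = 0.712). For Ces2e the step from vehicle to GH did not pass (adjusted p = 0.307).

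**Figure D5:**
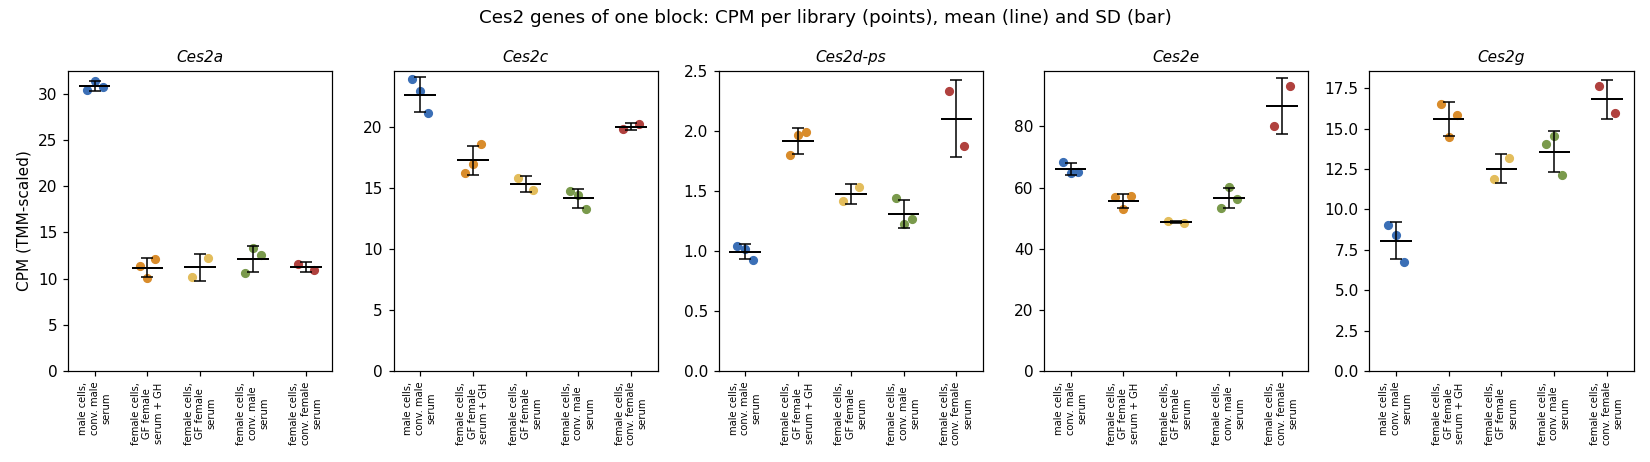
CPM per library, group mean and SD are shown for 5 genes of the Ces2 block on linear axes from 0. Ces2e and Ces2c stand higher in ConvR female serum than in every other female library, while Ces2a lies at 10.05 to 13.26 CPM in all female libraries and Ces2g is lowest in male cells.

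The members' profiles were compared over all 13 libraries, which share the donor difference, and again over the 10 female libraries. Over the 13, Pearson's r of log2 CPM among the 45 pairs ran from 0.13 to 1.00 with a median of 0.91, and over the female libraries from -0.41 to 0.88 with a median of 0.34. The lowest values over the 13 belonged to pairs with Ces2e, such as Ces1c and Ces2e (0.13). Within female libraries the pair Ces1c and Ces1e had 0.88, Ces1c and Ces3a 0.85, and Ces2c and Ces2e 0.71. Ces2c and Ces1e had -0.41 there. Ces1e rests on few counts per female library, which limits its precision.

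For each member the genes with the most similar profile over the 13 libraries were listed, by r. Ces3a was most like Serpina1c and Serpina1b, antitrypsin genes (r = 0.999 and 0.998, and 0.956 and 0.867 over the 10 female libraries). Ces3b was most like Mup3, a major urinary protein, and F12, a coagulation factor (both 0.997, and 0.705 and 0.732 over female libraries). Ces1e was nearest to Vtn, vitronectin (0.994), and C8a, a complement component (0.990). Ces2a was nearest to Hsd11b1, which regenerates active glucocorticoid (0.994), and C8a (0.992). Ces1g was nearest to Ugt3a2 (0.996, and 0.989 over female libraries) and to Pon1 (0.989). Slc27a5, a bile acid-CoA ligase, was among the 2 nearest to Ces1c (0.982), and Pgf was nearest to Ces1d (0.971). Ces1f was nearest to the gene model AC137123.1 (0.978) and Myl12b (0.977). Ces2e was nearest to Zbtb16, a glucocorticoid-inducible zinc finger factor (0.944, and 0.954 over female libraries), and Arl6ip1 (0.930). Ces2c was nearest to Txnip, a thioredoxin-binding protein (0.960, and 0.922 over female libraries), and Ahsg, a plasma protein (0.958).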

How the data were processed

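The authors deposited unscaled whole-number counts of exonic reads for each gene. Per the submitters' processing notes, reads were aligned with STAR 2.4.0i to mm10. The counting program, its annotation and its strand setting were not given in the sources used here. Per the labels' protocols, 250 ng of total RNA went into stranded, ribosomal RNA-depleted libraries with 12 PCR cycles.

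Of 15 columns, 13 matched 1 sample each and 2 with the same header were left out. Counts were filtered with filterByExpr (minimum count 10; 17405 of 38087 genes kept), scaled by TMM and fitted in 1 model of the 5 groups with edgeR 4.0.16 (8 residual degrees of freedom, biological coefficient of variation 9.02%). Each of the 5 comparisons used edgeR's quasi-likelihood F test with Benjamini-Hochberg adjustment over all genes and a threshold of 0.05. SE is the log2 fold change divided by the root of F, and 95% intervals use the t distribution of the same fit. The method was tested on simulated counts with known changes of 1 on the log2 scale, drawn from the fit's own spread. Smaller changes, such as those of the members between sera or with GH, were not simulated. Coordinates and exon lengths came from GENCODE M21 (mm10) and promoters from RefSeq (GRCm38.p6).

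The members, gene lists and tests were chosen with earlier results of these data known. Named besides the members were other carboxylesterases with at least 10 counts in total, up to 4 called members per list and comparison with the largest change, and 9 genes whatever their values (Nr1i2, Nr1i3, Hnf4a, Ppara, Nr1h4, Cyp2b10, Cyp3a11, Aadac, Gusb), besides Ces5a (below that count) and Bcl6 (beyond the first 4 in ConvR male against female serum), chosen after their values were seen. For each member the 2 most similar genes over the 13 libraries were named, leaving out Gm and Rik models. Some results that these rules select are not reported here. Alternatives were RLE scaling, library size only, no filter, DESeq2 1.42.0, a fit of only the groups compared, a replicate block, leaving out each library, and leaving out the pair rich in Xist.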

Additional observations from a re-analysis of the deposited data

How the results depend on the processing

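The number of members past the threshold did not change under RLE scaling, no filter on low counts, DESeq2 or the replicate block, in any of the 5 comparisons. For GF against ConvR female serum it was 1 in place of 2 with these groups fitted alone or the Xist-rich pair left out, and 1 without each single library, where Ces2c lost its call. For male against female cells it was 9 to 10 without 1 library, and 9 with library size only. For both other serum comparisons and for GH it did not move, and was 2, 0 and 0 without each single library. Of 600 values of single members under an alternative, 9 lost their call and 33 turned sign, each past the threshold under neither setting. Calls over all genes moved more. GF against ConvR female serum had 1115, with 1731 without the filter, 611 with these groups fitted alone, 367 without the Xist-rich pair and 274 to 1225 without 1 library. For GH it was 102, with 256 by DESeq2, 796 without the filter, 156 with these groups fitted alone, 62 with the replicate block and 33 to 190 without 1 library. ConvR male against female serum had 1532, with 468 with these groups fitted alone, 825 without the Xist-rich pair and 663 to 1652 without 1 library. GF against ConvR male serum had 78, with 301 by DESeq2, 622 without the filter, 31 with the replicate block, 286 without the Xist-rich pair and 2 to 160 without 1 library. The cause was not tested. Same-numbered libraries of different groups deviated together with r of -0.16 to 0.11 in 23 pairs, 1 over 0.1, so the numbers were not taken to pair the libraries, and the replicate block changed no member's call. Depth limits mainly Ces1e, Ces1f and Ces1d, with 57 to 236 counts per female library. Male cells gave 6379 calls and 5248 to 6090 without 1 library.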
